A study of Mus musculus with 8 samples.

Results

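The comparison of Smc3 deletion added to Flt3-ITD rests on 4 of the 8 ATAC-seq libraries of the series, 2 from Smc3-deleted Flt3-ITD mice and 2 from Flt3-ITD mice, chosen by their titles and limited to the 19 autosomes. ATAC-seq marks DNA that the Tn5 transposase can reach, and here each library is a list of accessible peaks. The peaks of the 4 lists merged into 99887 autosomal regions wherever they overlapped by at least 1 bp. The same step over all 8 lists of the series gave 109822. The cells were bone marrow cells selected for the receptor c-Kit with magnetic beads, 50000 per library, taken 4 weeks after PIpC.

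The titles give both genotypes an Mx1-Cre allele, a recombinase that PIpC induces in blood-forming and other cells. Flt3-ITD mice carry the internal tandem duplication of Flt3 by title and genotype label. The other group is labelled Smc3 fl/del Flt3-ITD, whereas its titles call the same mice Smc3 heterozygous, so whether a working Smc3 allele is left is not settled. The free-text description of the Flt3-ITD libraries speaks of a floxed Smc3 allele instead, and that of the libraries titled Smc3 del/+ speaks of Flt3-ITD. The comparison follows title and genotype label, and the counts with these groups exchanged are in the closing section. For comparison the text draws on the other 4 libraries: the controls, Smc3 fl/+ without Mx1-Cre, and Smc3 del/+ with Mx1-Cre, 2 libraries each and likewise given PIpC. No age, sex or strain is given in the sources used here.

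Smc3 is a subunit of the ring-shaped cohesin complex, which entraps DNA, holds sister chromatids together and extrudes chromatin loops until it meets CTCF. Loops bring enhancers to the genes they act on, and cohesin mutations are recurrent in acute myeloid leukemia. Flt3 is a receptor tyrosine kinase of early progenitors, and the tandem duplication makes it signal without its ligand, with strong activity through STAT5. The series asks how the amount of cohesin acts in normal and malignant blood formation. In bulk c-Kit+ marrow, fewer cells of a type and less accessibility per cell cannot be told apart. No mm9 genome or gene annotation was used here, so regions are given by mm9 position (counted from 1), without gene, exon or intron and without sequence. The c-Kit+ identity of the cells was not checked against marker genes for the same reason.

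The groups also differed outside the comparison. Smc3-deleted Flt3-ITD lists held 294 and 282 peaks on Y, against 97 and 86 in Flt3-ITD, and 2.60% and 2.72% of their peaks lay on X, against 3.65% and 3.79%. They were longer on the autosomes as well, with 78302 and 77849 peaks against 64602 and 61699. Both lay above both Flt3-ITD lists on each of the 19 autosomes. Neither read depth nor read number per peak is known. Because a longer list calls more regions, each list was cut to the length of the shortest, 61699 peaks, keeping the peaks with the highest deposited score and, among equal scores, the widest. The cut fell at a higher score with Smc3 deleted (0.9998 and 0.99978) than with Flt3-ITD alone (0.99431 and 0.99011). The part of depth and of the sex chromosome difference in the results was not tested.

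At the equal list length of 61699 peaks the genotypes shared most of their accessible regions, but with 20000 peaks per list or fewer they did not, as given below. Lists of equal length hold the number of called regions close, which pulls gains and losses towards balance. Of 58710 regions that both replicates of at least one genotype called, 39768 (67.7%) were called in all 4 libraries. Another 4347 were gained, meaning called with Smc3 deleted in both libraries and with Flt3-ITD alone in neither, which is 7.40% of these regions. Lost regions, the reverse, numbered 3474, or 5.92%. Gained regions thus made up 55.6% of the changed ones, a share that the cut itself holds near balance. This balance turned when either Flt3-ITD library was left out, which loosens the rule for that genotype: 8251 gained and 10295 lost without replicate 1, and 7828 and 10030 without replicate 2. In the full lists the balance was far more one-sided, with 9024 gained (13.4% of 67252) and 1921 lost (2.86%), a gained share of 82.4%. With 2 libraries against 2, a two-sided exact permutation test cannot reach a p below 1 in 3, so no p is attached to these counts.

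A region below the cut in one genotype is not necessarily closed there. Of the 4347 gained regions, 4061 (6.92% of the regions compared) had no peak in even the full Flt3-ITD lists. Of the 3474 lost regions, 1778 (3.03%) had no peak in the full Smc3-deleted Flt3-ITD lists. The other 1696 lost regions still held a peak of that genotype below the cut, against 286 of the gained regions. The full Smc3-deleted Flt3-ITD lists reach further below the cut than the Flt3-ITD lists do, so the smaller loss cannot be told apart from list length. Of the gained regions of the full lists, 45.0% were also gained at equal length, and of the lost regions 92.6% were also lost.

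Among the best-ranked peaks, neither direction led at every list length. Here too, equal lengths pull gains and losses towards balance. With 5000 peaks per list, 661 regions were gained and 660 lost, of 3762 compared. With 10000 the counts were 1154 and 1296 of 8428, and with 20000 they were 2477 and 2118 of 21094. With 30000 they were 2325 and 2162 of 30160. Changed regions were thus a larger part of those compared in the shortest lists. Regions called in all 4 libraries made up 26.5%, 32.1%, 45.1% and 68.3% at these 4 lengths. The excess of gains was largest, in number, at the full equal length. Few of the regions from the best peaks were empty in the other genotype. At 10000 peaks per list, 30 gained and 28 lost regions had no peak at all in the other genotype's full lists. At 20000 peaks these numbers were 109 and 191, with more losses than gains, and at 50000 they were 1828 and 880. A score of exactly 1 was shared by 27309 and 27354 peaks with Smc3 deleted and by 20797 and 19740 with Flt3-ITD alone. Lists of 10000 peaks or fewer are therefore ordered by width alone. At 20000 peaks the lists keep only the widest of these ties with Smc3 deleted, but nearly all of them with Flt3-ITD alone. The excess of empty losses at that length cannot be told apart from this difference. These lengths were chosen after the data were seen.

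**Figure D1:**
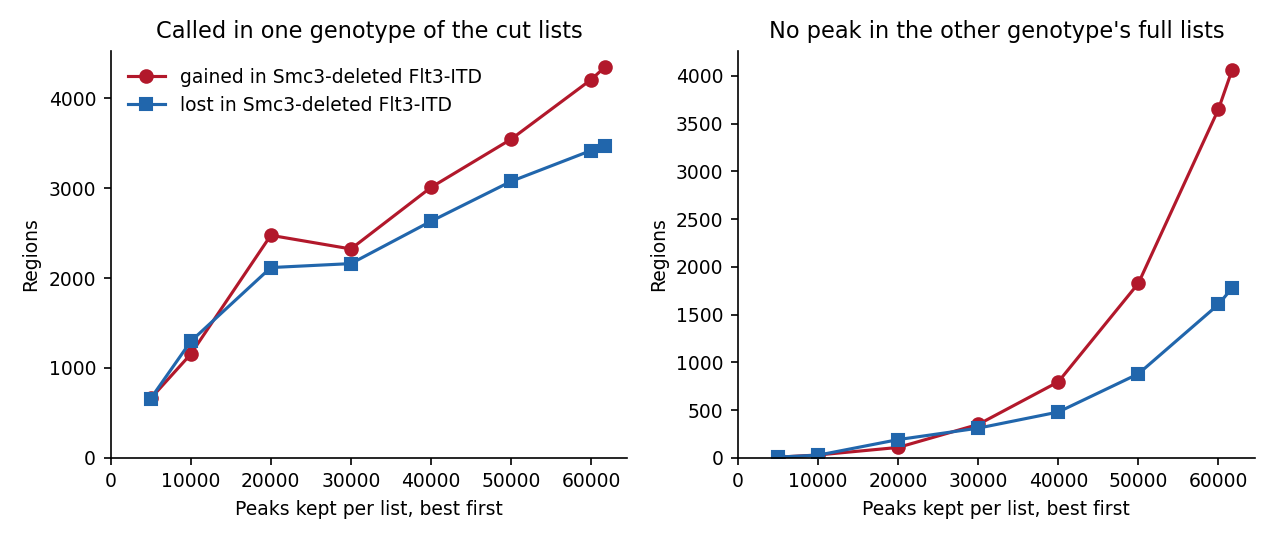
Number of regions gained (red circles) or lost (blue squares) in Smc3-deleted Flt3-ITD against Flt3-ITD, with each of the 4 lists limited to its best peaks (x axis, number of peaks). The left panel counts calls in the limited lists and ends at 4347 gained and 3474 lost; the right panel counts those with no peak in the full lists of the other genotype and ends at 4061 and 1778.

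Replicates of one genotype also disagreed at many regions, which sets the error of these calls. The Smc3-deleted Flt3-ITD libraries differed at 28.1% of the regions that either called at equal list length, and the Flt3-ITD libraries at 32.5%. Pairs of libraries from different genotypes differed at 35.8%, 36.6%, 36.1% and 37.0%. All 4 pairs between genotypes lay above both pairs within a genotype. In each pair between genotypes the Smc3-deleted Flt3-ITD library alone called more regions than the Flt3-ITD library alone, from 13524 against 12661 to 14089 against 13076. At equal list length this excess depends only on how many peaks share a region. A single library's call was a common event: 21403 regions were called in only 1 of the 4 cut lists.

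**Figure D2:**
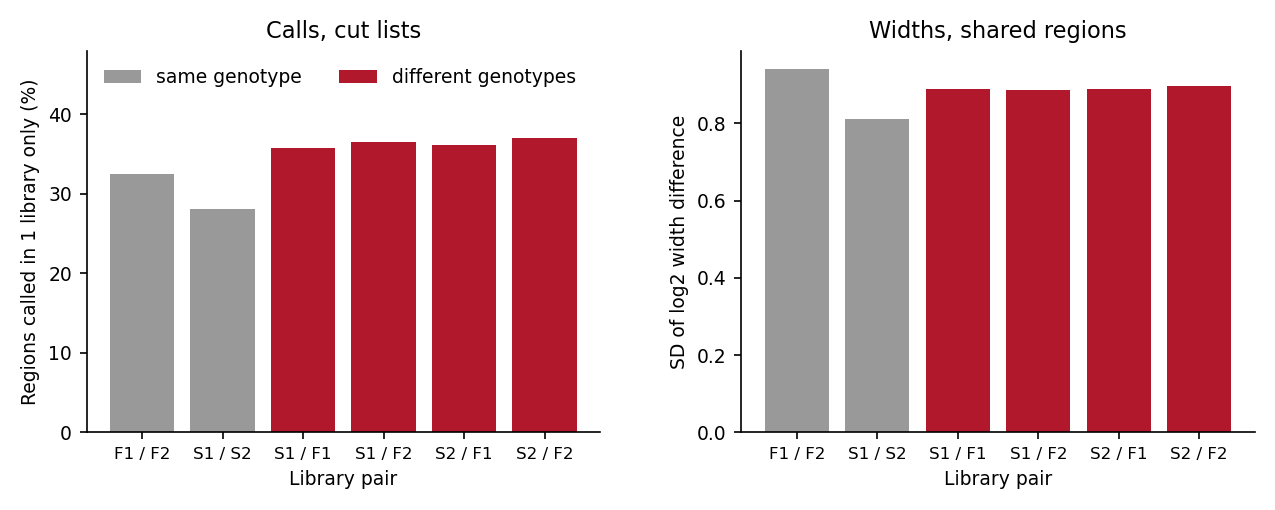
Disagreement between pairs of libraries, with S1 and S2 the Smc3-deleted Flt3-ITD and F1 and F2 the Flt3-ITD replicates; grey bars are pairs of one genotype and red bars pairs of different genotypes. The left panel gives the percent of regions called in only 1 library of the pair at equal list length (28.1% and 32.5% within, 35.8% to 37.0% between); the right panel gives the SD over shared regions of the log2 difference in bases covered (0.81 and 0.94 within, 0.89 to 0.90 between).

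Few peaks of gained regions had the highest score, and peak widths were close to those of peaks in shared regions. In the Smc3-deleted Flt3-ITD libraries, 8.86% and 8.93% of the peaks in gained regions had a score of exactly 1, against 59.8% and 59.6% of the peaks in regions shared by all 4 libraries. In regions that a single library called, the shares were 8.45% and 9.34%, close to those of gained regions. Their median widths were 403 and 407 bp, against 404 and 405 bp in shared regions. Peaks of lost regions were alike in this, with 6.77% and 6.87% at a score of 1 in the Flt3-ITD libraries, against 45.5% and 42.7% in shared and 6.30% and 6.10% in single-library regions. Their median widths were 423 and 429.5 bp, against 427 and 429 bp. The score measures something the authors did not define in the sources used here, and it is used only to rank peaks of one list. Regions with a score of 1 in both calling libraries and no peak in the other genotype's full lists numbered 298 of the 4061 gained and 206 of the 1778 lost. These shares, 7.34% and 11.6%, lie below the 40.0% of shared regions with a score of 1 in all 4 libraries.

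The 10 highest-ranked gained regions with no Flt3-ITD peak, all with a score of 1 in both libraries and chosen among such ties by width, were 1072 to 1537 bp wide. The first, chr2:169954364-169955824, had peaks of 1096 and 1461 bp in the Smc3-deleted Flt3-ITD libraries. It was also called in both Smc3 del/+ libraries and in neither control, but lies 304 bp from a region shared by all 4 libraries. Calls at single regions are from full lists. The region chr17:88145267-88146803, with peaks of 1438 and 662 bp, stands alone: its nearest shared region is 72889 bp away. It was called in both control and both Smc3 del/+ libraries, so of the 8 libraries the 2 of Flt3-ITD lacked it.

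At chr9:80189455-80190612 (866 and 989 bp) and chr10:13653021-13654092 (431 and 1072 bp), a peak was found in no library of any other genotype. The region chr7:36119759-36120868 (1110 and 683 bp) was called in both control libraries and in no Smc3 del/+ library. Both other genotypes called chr7:16844226-16845573 in every library, and its peaks of 328 and 1348 bp differed most in width between the replicates. The remaining 4 were chr11:107331549-107332797 (572 and 1249 bp), chr3:99964143-99965314 (969 and 809 bp), chr5:64550383-64551638 (516 and 1237 bp) and chr7:106235100-106236383 (1284 and 338 bp), each called in some control and some Smc3 del/+ libraries. Flt3-ITD peaks stood beside 6 of the 10, less than 1 kb away.

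The 10 highest-ranked lost regions with no Smc3-deleted Flt3-ITD peak were likewise chosen by width among ties at a score of 1, and 2 of them lay far from any shared region. The first, chr16:59246292-59248964, had peaks of 1565 and 1867 bp, and no shared region lies within 171632 bp of it. Farther still from a shared region, at 322256 bp, was chr8:38448330-38452241. Its listed peaks of 1266 and 1193 bp do not span the region, which is 3912 bp wide. It lies within a tract of 3 lost regions, chr8:38127132-38453478, of which Smc3-deleted Flt3-ITD replicate 2 called 1 in its full list. This chr8 region and the first were called in all 4 control and Smc3 del/+ libraries, as was chr1:145846248-145847440 (1132 and 1136 bp). The last of these lies 3537 bp from a shared region. Of the 8 libraries, the 2 of Smc3-deleted Flt3-ITD lacked a peak at these 3.

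A different pattern was seen at chr7:29159948-29161266 (1318 and 1268 bp) and chr8:74845892-74847186 (1176 and 1295 bp). Both were called in both Smc3 del/+ libraries and in no control library. The region chr7:26004323-26005455, with 1108 and 1019 bp, was called in Flt3-ITD alone. The others, each called in some control and some Smc3 del/+ libraries, were chr12:86812716-86814081 (1035 and 1138 bp), chr14:62301006-62302609 (1604 and 513 bp), chr7:117307220-117308176 (873 and 957 bp) and chr3:9608135-9609231 (694 and 1097 bp). Peaks of Smc3-deleted Flt3-ITD stood less than 1 kb from 5 of the 10.

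Gained regions lay farther from shared accessible regions than lost regions did. From edge to edge, the median distance to the nearest region called in all 4 cut lists was 9859 bp for gained regions (quartiles 3228 and 28442.5 bp) and 4705 bp for lost regions (1328.25 and 16789 bp). The 95% order-statistic intervals of these medians, 9367 to 10515 bp and 4378 to 5073 bp, cover counting error only. Shared regions themselves lay 5901 bp from the next shared region, and regions called in a single library lay at 6407 bp. Within 1 kb of a shared region stood 8.95% of gained and 20.2% of lost regions, against 11.8% of shared ones. Within 20 kb the shares were 67.2% and 77.8%. The merged regions differed in width, with medians of 582 bp for gained, 874 bp for lost, 918 bp for shared and 436 bp for single-library regions. The part of region width in the distances, and in the calls by other genotypes, was not tested.

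The order held in every alternative that was run for it. Full lists gave 9411 bp for gained and 3826 bp for lost regions. Limiting the sets to regions with no peak in the other genotype's full lists gave 9826 and 4435 bp. Regions one call short of the rule followed the same order: those with calls in both libraries of Smc3-deleted Flt3-ITD and 1 of Flt3-ITD lay at 7046 bp, and those called in both Flt3-ITD libraries and 1 other at 5291.5 bp. Of the gained regions, 24.3% had a Flt3-ITD peak of the cut lists within 1 kb, and of the lost regions, 36.6% had a Smc3-deleted Flt3-ITD peak that near. In the full lists, a peak of the other genotype lay inside or within 1 kb of 30.3% of gained regions and 73.9% of lost ones. Counting only regions with no such peak inside them, the shares were 25.3% (1029 of 4061) and 49.1% (873 of 1778). The full lists are longer with Smc3 deleted, so the gaps in these full-list shares cannot be told apart from list length. Most regions of a set stood apart from each other: the median distance to the next gained region was 90852 bp and to the next lost region 95636 bp. No test was made of the difference in distance, since regions of one library are not replicates.

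**Figure D3:**
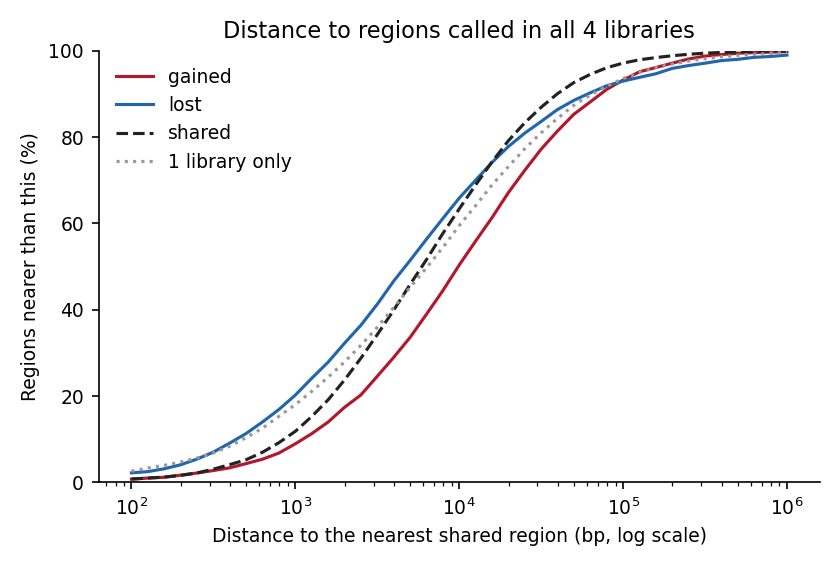
Cumulative share of regions (y axis, percent) by distance to the nearest region called in all 4 cut lists (x axis, bp, log scale), for gained, lost, shared and single-library regions. Within 1 kb lie 8.95% of gained, 20.2% of lost, 11.8% of shared and 18.0% of single-library regions, and within 20 kb 67.2%, 77.8%, 79.2% and 73.2%; the curves for gained and lost regions cross at longer distances.

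The control and Smc3 del/+ libraries did not choose the regions and show how each set behaves outside the comparison. Most gained regions were not called there: 27.3% and 27.2% were called in the control libraries and 23.2% and 24.5% in the Smc3 del/+ libraries. Lost regions were called about as often as not, with 52.7% and 54.9% in control and 46.6% and 46.3% in Smc3 del/+. Over all 58710 regions compared, the shares were 79.8% and 79.2%, and 74.8% and 75.6%. In each of these 4 libraries the share was higher for lost than for gained regions. By genotype, the mean share of gained regions called was 27.2% ± 0.0163 in control and 23.9% ± 0.911 in Smc3 del/+, and that of lost regions 53.8% ± 1.55 and 46.4% ± 0.265 (SD, n = 2 each). Smc3 del/+ lists were shorter than the cut, 59641 and 61061 peaks, and were used whole.

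Counted by pattern, 2326 gained regions (53.5%) were called in none of the other 4 libraries and 321 (7.38%) in all of them. Lost regions were called in none about as often as in all, with 620 (17.8%) and 635 (18.3%), and most were called in only some. Over all regions compared the values were 9.53% and 60.7%. The pattern of calls in control against Smc3 del/+ set few of these regions apart. Of the gained regions 100 (2.30%) were called in both Smc3 del/+ libraries and in no control library, against 1.47% over all regions compared, and 165 (3.8%) had the reverse pattern, against 3.43%. Among lost regions, 283 (8.15%) were called in both control libraries and in no Smc3 del/+ library, and 162 (4.66%) the other way round, both above the same shares over all regions.

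**Figure D4:**
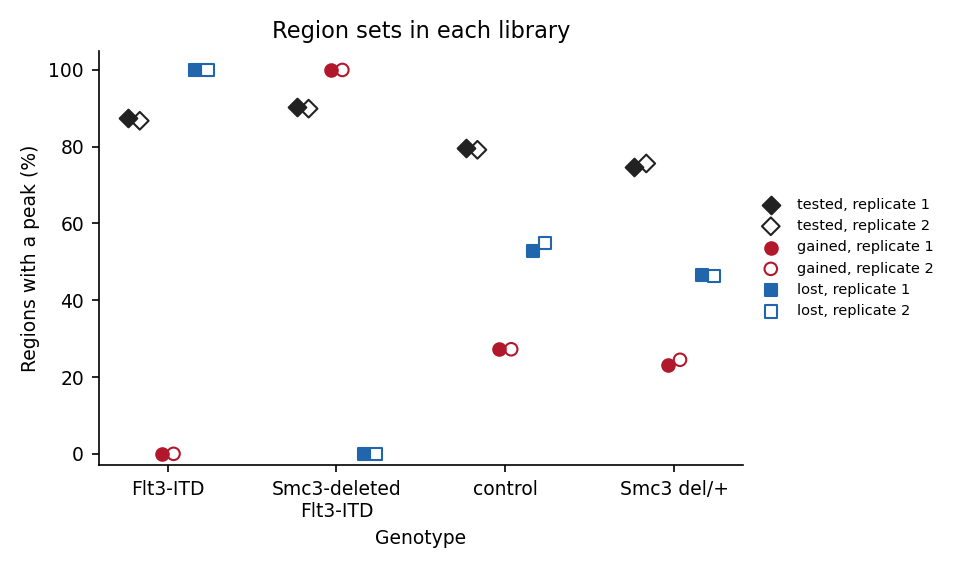
Percent of regions with a peak in each library at equal list length (y axis), by genotype (x axis), for all regions compared (diamonds), gained (circles) and lost regions (squares); filled symbols are replicate 1 and open symbols replicate 2. The 0% and 100% values follow from the rule, while in control and Smc3 del/+ gained regions sit between 23.2% and 27.3% and lost regions between 46.3% and 54.9%.

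Changes were spread over every autosome. At equal list length, gained regions made up 6.0% (chromosome 17) to 9.48% (chromosome 18) of the regions compared, and lost regions 4.88% (chromosome 14) to 6.84% (chromosome 3). Gains outnumbered losses on 18 of the 19 chromosomes. The exception was chromosome 4, with 232 gained and 245 lost regions. The number of cut peaks per chromosome in Smc3-deleted Flt3-ITD was 0.973 to 1.05 times that in Flt3-ITD. Both its libraries lay above both Flt3-ITD libraries on 5 chromosomes and below them on 3.

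**Figure D5:**
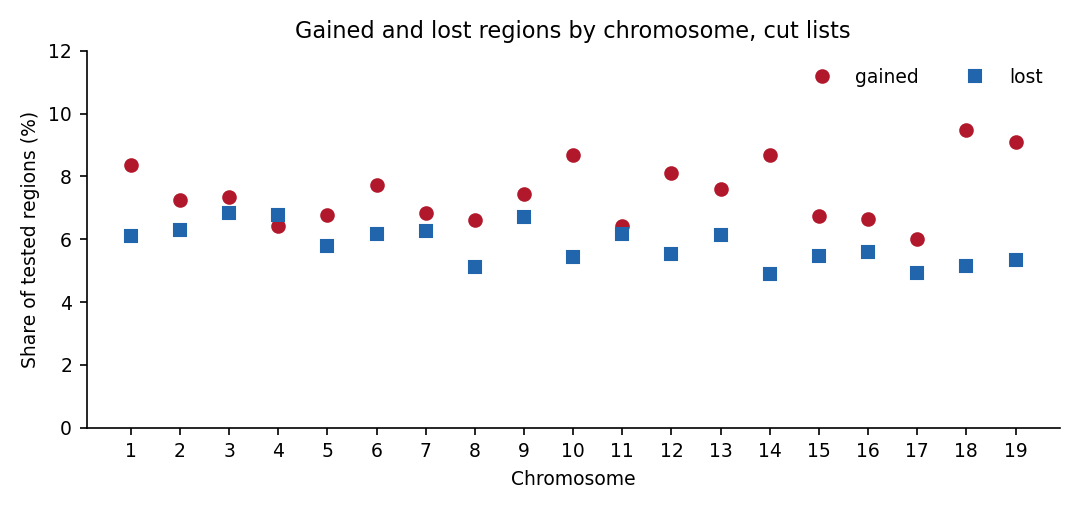
Gained (red circles) and lost (blue squares) regions as percent of the regions compared on each autosome at equal list length. Gained shares run from 6.0% to 9.48% and lost shares from 4.88% to 6.84%, and the circle lies under the square on chromosome 4 alone.

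Within chromosomes a few stretches stood out. Of 2192 windows of 1 Mb, the 5 with the most gained and the 5 with the most lost regions are named. Ranking by count favours windows with many compared regions. The calls of the compared genotypes in them follow in part from this choice. Control and Smc3 del/+ did not choose the regions compared, and full lists are longest with Smc3 deleted. Over the 67252 regions compared in full lists, the mean share called was 94.5% with Smc3 deleted and 79.6% with Flt3-ITD alone. It was 75.9% in control and 68.9% in Smc3 del/+. Windows hold the regions compared at equal length, so these shares are only a rough guide. A 1 Mb window held a median of 23 compared regions, with 2 gained and 1 lost. The window with the most gains, chromosome 18 from 69 to 70 Mb, held 14 gained and 0 lost of 40 regions. The Smc3-deleted Flt3-ITD libraries called 40 and 38 of these in their full lists, and the 6 others between 23 and 26. Chromosome 5 from 53 to 54 Mb had 10 gained and 0 lost of 40, with 40 called in each Smc3-deleted Flt3-ITD library and 21 to 28 in the others. The next most gains lay on chromosome 6 from 128 to 129 Mb (13 of 73, with 7 lost), chromosome 2 from 52 to 53 Mb (12 of 50, with 4 lost) and chromosome 10 from 41 to 42 Mb (11 of 56, with 1 lost).

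Losses were most concentrated on chromosome 3 from 25 to 26 Mb, where 12 of 13 regions were lost and none gained. All 12 lacked a peak in the full Smc3-deleted Flt3-ITD lists, which called 1 of the 13 regions each, whereas Flt3-ITD libraries called 13 each, control libraries 10 each and Smc3 del/+ libraries 10 and 9. The other windows rich in losses were less emptied: chromosome 4 from 146 to 147 Mb had 13 lost of 60 regions, of which 6 lacked any peak. On chromosome 19 from 53 to 54 Mb, 12 lost and 10 gained regions stood together among 89. Chromosome 4 from 154 to 155 Mb had 11 lost of 66 regions and chromosome 11 from 97 to 98 Mb 11 of 74.

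Tracts of at least 3 gained regions in a row, with no other called region between them, numbered 37, and tracts of lost regions 20. The longest gained tract, chr10:41837838-41915251, held 6 regions over 77.4 kb. Neither Flt3-ITD nor Smc3 del/+ libraries had a peak in any of them, and control replicate 1 had a peak in 1. A tract of 4 regions at chr2:33010538-33059683 had the same pattern. The other tract of 4 gained regions, chr9:53588677-53635474, did not. Control replicate 1 called 3 of its regions, and the Smc3 del/+ libraries called 1 and 2. In 13 of the 37 gained tracts no region was called in any of the 6 other libraries, even with full lists. No lost tract was private to Flt3-ITD in this way. For gained tracts all 6 other lists were shorter, while for lost tracts they included the longer Smc3-deleted Flt3-ITD lists. The counts of private tracts therefore cannot be told apart from list length. In 33 of the 37 gained tracts no region had a Flt3-ITD peak in the full lists, and in 7 of the 20 lost tracts none had a peak in the longer full lists of Smc3-deleted Flt3-ITD. At one of these lost tracts, chr18:82634860-82638343, all 3 regions were called in all 6 other libraries. Another, chr3:25440128-25444860, held 4 regions within 4.73 kb and lies inside the emptied window of chromosome 3. The lost tract with the most regions, chr4:112060119-113606010, held 5 and was not empty. In the full lists each Smc3-deleted Flt3-ITD library had a peak in 1 of them.

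Peaks were narrower in Smc3-deleted Flt3-ITD than in Flt3-ITD. Median autosomal width at equal list length was 403 and 404 bp against 423 and 424 bp, a difference of -20.0 bp with no overlap between the groups. Full lists gave 405 and 406 bp against 422 and 424 bp. The difference was present within the regions open in all 4 libraries. In the 43352 regions called in all 4 full lists, the median number of bases covered was 409 and 411 bp against 434 and 437 bp, and the median log2 difference was -0.09. Outside the comparison, median autosomal peak width was 408 bp in both cut control lists. In the Smc3 del/+ lists, used whole, it was 434 and 432 bp. Smc3-deleted Flt3-ITD thus lay near control, whereas Smc3 del/+ peaks were wider than those of control. The reason for these differences was not tested.

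No single shared region passed the test of width. limma on the log2 of the bases covered found 0 wider and 0 narrower regions (0% of 43352 in each direction) at a Benjamini-Hochberg adjusted p below 0.05, and the smallest adjusted p was 0.481. At an unadjusted p below 0.05 there were 602 wider and 1655 narrower regions. Without regard to the size of the gap, both Smc3-deleted Flt3-ITD widths exceeded both Flt3-ITD widths in 5336 regions (12.3%) and lay below them in 10051 (23.2%). Once each library was centred on its own median width, these counts were 8372 and 7048, so the wider share of such regions went from 34.7% to 54.3%. The log2 difference between the 2 replicates of a genotype had an SD over regions of 0.81 with Smc3 deleted and 0.94 with Flt3-ITD alone. Between genotypes the SD was 0.89 to 0.90, inside the range of the replicates.

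Some differences were large in all 4 libraries and still failed the test. At chr7:29828143-29829548 the covered bases were 1406 and 1217 in Smc3-deleted Flt3-ITD and 163 and 142 in Flt3-ITD, a log2 difference of 3.10 (SE 0.23, limma adjusted p = 0.834). At chr2:160471078-160472516 they were 858 and 1301 against 117 and 130. The next widest gaps in this direction were at chr4:40668828-40670893, chr11:49050775-49051950 and chr9:22065628-22067075, with log2 differences of 2.84, 2.71 and 2.71. In the other direction, chr10:5301405-5302581 was covered by 108 and 138 bases in Smc3-deleted Flt3-ITD and by 1088 and 1143 in Flt3-ITD, a log2 difference of -3.19 (SE 0.20, limma adjusted p = 0.625). At chr15:77660935-77662805 the values were 308 and 104 against 1832 and 1512, the largest drop, at -3.22. The other 3 of this group, chr13:37751591-37752779, chr16:94592170-94594100 and chr14:106318828-106320900, had differences of -3.03, -3.02 and -2.99. These 10 had the largest differences among regions whose groups did not overlap.

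A pair of regions passed when the fit used another definition of width, although their own widths were the same under both definitions. When the widest peak stood for the region, chr17:63847847-63850589 was wider in Smc3-deleted Flt3-ITD, at 2615 and 2660 bp against 983 and 1008 bp (log2 difference 1.41, limma adjusted p = 0.0362). Under the same definition chr9:94437143-94439729 was narrower, at 2010 and 2041 bp against 2584 and 2569 bp (-0.35, limma adjusted p = 0.0362). In both, the replicates of a genotype lay close together. Each held 1 peak in each library, so by bases covered the log2 differences were also 1.41 and -0.35. Only the SE of the fit differed. By bases covered it was 0.067 and 0.015, and with the widest peak 0.034 and 0.009. By bases covered the limma adjusted p of both was 0.481. Both were named after their values were seen.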

How the data were processed

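Peaks were listed by the authors for each library, with no header: 6 columns give chromosome, start, end, peak name, a score and strand. The deposited score runs from 0.99 to 1, has no definition in the sources used here, and served only for ranking inside a list. Bowtie (version not stated) and the build mm9 come from the submitters' processing notes. The peak caller, duplicate removal and transposase offset: not given in the sources used here. Gene and promoter tables at hand are for GRCm38 and were not used.

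Peaks of the 4 lists were merged at an overlap of 1 bp or more, and a library called every region that held one of its peaks; 735 repeated intervals merged with the rest. Lists were cut to 61699 peaks by score, then width. Distances run between region edges. limma 3.58.1 (R 4.3.3, trended eBayes, Benjamini-Hochberg over all shared regions) was fitted to log2 bases covered; other steps ran in scipy 1.17.1, pandas 2.3.3, numpy 2.4.6 and matplotlib 3.10.9 under Python 3.11.15. The steps were tested on simulated data. Per the labels, marrow came from individual mice; whether the 2 libraries of a genotype came from separate mice is not stated, so p-values measure only the spread between these libraries, which may be technical. Named gained and lost regions are the 10 per direction with the highest mean score percentile, ties by width, and no peak of the other genotype; those named for width are the 5 largest non-overlapping differences each way, because none passed. Windows are the 5 richest per direction. The comparison, rules and lists were chosen with earlier results of these data known.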

Additional observations from a re-analysis of the deposited data

Results flagged for a closer look

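The Y chromosome lies outside the autosomal comparison, and it carried a signal above the control level. The Smc3-deleted Flt3-ITD lists held 288 ± 8.49 Y peaks (SD, n = 2), against 93.5 ± 6.36 in control and 91.5 ± 7.78 in Flt3-ITD. Its part in the autosomal results was not tested.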

How the results depend on the processing

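Gained and lost counts moved with the rule for a call. Full lists gave 9024 gained and 1921 lost regions, the upper 50% of the equal length 2404 and 2191, and the exchanged descriptions (Smc3-deleted Flt3-ITD against the libraries titled Smc3 del/+) 7294 and 5908. Merging peaks up to 500 bp apart gave 3905 and 2646. Asking for no peak of the other genotype's full lists within 1 kb left 3032 of the 4347 gained and 905 of the 3474 lost. Losses are screened here against the longer Smc3-deleted Flt3-ITD lists, so this gap cannot be told apart from list length. In the cut lists, 1057 gained and 1273 lost regions had such a peak. Leaving out a library loosens the rule for its genotype. Gains then ran from 7828 to 10168 and losses from 6136 to 10295. Without replicate 1 or 2 of Smc3-deleted Flt3-ITD, gained and lost were 10168 and 6297 or 10054 and 6136. Without Flt3-ITD replicate 1 or 2, losses outnumbered gains, with 8251 and 10295 or 7828 and 10030.

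Gained regions stayed farther from shared regions than lost ones: 9411 and 3826 bp with full lists, 17563 and 7837 bp with the upper 50%, and 10794 and 5636.5 bp with wider merging. Without 1 library the medians ran from 7797 to 8899 bp and from 4319 to 4765 bp. The share of gained regions called in control and Smc3 del/+ libraries (25.6%, mean of 4) was 22.8% with full lists. The width difference was -17.5 bp with full lists and -30.5 bp with the exchanged descriptions; without 1 library it ran from -20.5 to -19.5 bp. Of the named regions, 7 of 10 gained and 5 of 10 lost kept their call with wider merging. Under the other alternatives the rule that chose them fixes the call.

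For widths, limma passed 1 wider and 1 narrower region with the widest peak, 1 and 1 among regions with 1 peak in each library, and, added after seeing the data, 1 and 0 when these were also centred. It passed 0 in the other alternatives, where the smallest adjusted p ran from 0.283 to 0.934. With the replicate block it passed 0 and 0 (487 and 954 at unadjusted p below 0.05). The numbers are not said to pair the libraries, and the correlation across regions of same-numbered libraries' deviations was -0.0108. Depth is unknown, so a call missed for lack of reads cannot be recognised.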
